A study of Mus musculus with 6 samples.

Results

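The genes described here encode the voltage-gated sodium and calcium channels and the potassium channels of the mouse, together with the auxiliary subunits that carry the same symbols. They were every gene whose single symbol in the platform's probe table began with Kcn and a letter, began with Cacn, or read Scn, a number and a or b. Of 18193 genes measured, 119 met the rule: 11 sodium channel genes, 24 calcium channel genes, 81 potassium channel genes and 3 non-coding genes named after potassium channels (Kcnq1ot1, Kcnmb4os1 and Kcnmb4os2). A probe set is a group of short oligonucleotides that together report 1 transcript, and where a gene had several, the one brightest on average over the 6 arrays stood for it. Levels are the log2 of the deposited intensity, and differences are swap minus control on that scale. Readings are given in the order of arrays 1, 2 and 3, and the arrays of each genotype are called the controls and the swaps. Intensities of different probe sets share no scale, so the highest mean in a family only chose which gene to describe.

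RNA came from tauGFP-positive cells, sorted out of the dissected hindbrains of mouse embryos at E10.5 (embryonic day), with the embryos of whole litters pooled. The labels name the source rhombomere 4, the hindbrain segment in which Hoxb1, a homeodomain transcription factor, is maintained. In both groups the Hoxb1 locus also made tauGFP through an internal ribosome entry site, so the reporter was shared and no group lacked it. Control embryos (Hoxb1-IRES-tauGFP) made Hox-B1 protein from that locus, and swap embryos made a paralogous Hox protein from it in place of Hox-B1. Each genotype had 3 arrays, which the series design calls independent biological replicates, so the spread between arrays is that between pooled samples. The comparison asked how RNA levels at this stage differed between embryos that made one or the other Hox protein from the same locus.

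Voltage-gated channels open when the membrane depolarizes. Sodium channels carry the fast upstroke of the action potential, calcium channels couple the same depolarization to transmitter release, enzyme activity and transcription, and potassium channels repolarize the cell and set its resting potential. In the embryonic hindbrain the first neurons, among them the branchiomotor neurons of the facial nerve that arise in rhombomere 4, acquire these channels as they differentiate, and early spontaneous activity depends on them.

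RefSeq start sites were found for 91 of the 119 genes, with windows of 250 bases before to 50 bases after each start in the GRCm38.p6 assembly. The windows were searched on both strands for TGATNNAT, the letters that Hox proteins bind together with their Pbx partners. Of the 91 genes, 6 (6.59%) held it, against 6.5% of all measured genes with a window and 8.85% of all 32851 promoter windows in the table. With genes of all levels together, the share in the channel genes was therefore close to that of all measured genes. Among genes at or above the median level (log2 6.83, over all probe sets) it was 6.82% (3 genes), against 4.97% of all genes. Below that level the order was reversed, with 6.38% (3 genes) against 9.06%. These 6 stretches of 30 bases are printed because they are the places in the windows with the letters of a Hox and Pbx site. The 8 matching letters are in capitals, each stretch is read on the strand of its gene, and ATNNATCA is the same motif on the opposite strand.
Cacna1d (chr14:30491296-30491325, minus strand): attttttgactTGATAAATtataaactcat
Cacna2d1 (chr5:15934699-15934728, plus strand): ggcgaccgcggATAAATCAgggaggcgagc
Kcne3 (chr7:100176621-100176650, plus strand): tctaaggtggtATGAATCAgagtttctgat
Kcnip4 (chr5:49285723-49285752, minus strand): tgcttacatgcTGATTCATtgatgagctgg
Kcnmb1 (chr11:33962974-33963003, plus strand): catttttgtacATATATCAggatggccttg
Scn8a (chr15:100936223-100936252, plus strand): ttttagagcggTGATTGATtaacgctgcct
The first matching base lay at -158 in Cacna1d, 20 in Cacna2d1, -38 in Kcne3, -82 in Kcnip4, -28 in Kcnmb1 and -37 in Scn8a, counted from the listed start. The intensity differences of these 6 genes between genotypes (swap minus control, log2) were 0.36 for Cacna1d, 0.09 for Cacna2d1, -0.31 for Kcne3, 0.83 for Kcnip4, 0.31 for Kcnmb1 and -0.02 for Scn8a. No interval of the 6 excluded 0. A match of letters is not a bound site, and a window without one says only that these letters are not in it.

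CpG dinucleotides were fewer in the windows of channel genes than in those of all genes. The median was 11 CpG per window in the channel genes and 17.0 in all 14452 measured genes with a window. Among genes at or above the median level (log2 6.83, over all probe sets), the channel genes had 12.25 and all genes 21.0. Below that level the order was the other way, with 11 in the channel genes and 6.58 in all genes. The 44 channel genes at or above the level and the 47 below it thus had medians close to each other. Single genes ran from 1 CG in Kcnmb1 to 48 in Kcnmb4. The following 5 windows, with every CG in capitals, show how far CG content varied among genes chosen by intensity alone. Among genes with 1 listed start, Cacna2d1, Kcnq1ot1 and Cacna1b had the highest mean intensities, and Kcnk7 and Kcna3 the lowest.
Cacna2d1 (chr5:15934441-15934740, plus strand): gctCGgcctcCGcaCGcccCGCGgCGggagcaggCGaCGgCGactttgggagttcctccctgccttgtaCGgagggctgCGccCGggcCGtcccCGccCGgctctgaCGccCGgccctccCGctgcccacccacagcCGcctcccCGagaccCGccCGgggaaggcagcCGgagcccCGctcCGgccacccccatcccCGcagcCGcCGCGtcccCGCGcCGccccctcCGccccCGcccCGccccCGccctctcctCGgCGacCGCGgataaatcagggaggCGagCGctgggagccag
Kcnq1ot1 (chr7:143296498-143296797, minus strand): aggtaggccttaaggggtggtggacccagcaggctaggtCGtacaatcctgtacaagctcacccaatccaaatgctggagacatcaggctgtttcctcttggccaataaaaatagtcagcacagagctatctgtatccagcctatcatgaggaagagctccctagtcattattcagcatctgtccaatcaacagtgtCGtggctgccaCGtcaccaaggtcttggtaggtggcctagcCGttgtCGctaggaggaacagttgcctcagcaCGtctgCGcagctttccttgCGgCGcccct
Cacna1b (chr2:24763103-24763402, minus strand): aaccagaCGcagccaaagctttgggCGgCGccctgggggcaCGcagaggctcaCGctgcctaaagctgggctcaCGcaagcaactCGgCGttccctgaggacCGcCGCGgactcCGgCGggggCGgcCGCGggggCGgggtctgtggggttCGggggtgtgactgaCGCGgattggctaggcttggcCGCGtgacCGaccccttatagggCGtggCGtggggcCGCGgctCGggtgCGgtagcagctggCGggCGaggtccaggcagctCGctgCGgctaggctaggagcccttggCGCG
Kcnk7 (chr19:5704221-5704520, plus strand): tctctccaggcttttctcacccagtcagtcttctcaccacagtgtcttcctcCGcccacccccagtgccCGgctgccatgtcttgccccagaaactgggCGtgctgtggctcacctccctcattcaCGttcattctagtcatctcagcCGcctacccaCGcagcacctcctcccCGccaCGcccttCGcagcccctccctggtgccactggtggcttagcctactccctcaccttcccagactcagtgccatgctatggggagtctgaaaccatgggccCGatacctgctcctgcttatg
Kcna3 (chr3:107035912-107036211, plus strand): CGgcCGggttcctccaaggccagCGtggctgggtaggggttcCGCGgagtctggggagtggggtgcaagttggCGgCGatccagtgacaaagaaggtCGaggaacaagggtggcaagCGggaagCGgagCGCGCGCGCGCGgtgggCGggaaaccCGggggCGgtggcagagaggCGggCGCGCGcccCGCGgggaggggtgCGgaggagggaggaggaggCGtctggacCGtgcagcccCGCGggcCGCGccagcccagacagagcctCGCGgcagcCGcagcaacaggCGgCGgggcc
Cacna2d1 had 42 CG in its window, Kcnq1ot1 had 9 and Cacna1b had 35, while Kcnk7 had 10 and Kcna3 had 37. Windows rich and poor in CG thus stood in both sets of genes.

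No channel gene passed the test between genotypes. With limma, 0 of the 119 had an adjusted p under 0.05, as did 0.00% of all 45037 probe sets (2060 had an unadjusted p under 0.05), and the smallest limma adjusted p of the channel genes was 0.896, for Cacng3. At an unadjusted limma p under 0.05 there were 8 channel genes (6.72%), 4 higher and 4 lower in the swaps, where 3.63% of all genes were below that p. The 3 swap arrays lay wholly on one side of the 3 control arrays for 13 channel genes (10.9%), against 8.85% of all genes. In 5 of them the swap arrays were all higher (4.30% of all genes) and in 8 all lower (4.55% of all genes). Of the 13 genes 10 lay below the median level of all probe sets, 15.6% of the 64 channel genes there, against 9.89% of all genes there. At or above that level 3 of 55 channel genes (5.45%) had groups apart, against 8.19% of all genes. Of the 8 at that unadjusted p 7 lay below it, 10.9% of the 64 channel genes there, against 7.4% of all genes there. The median difference was 0.06 over the 119 genes, with 66 above 0 and 53 below, and 0.01 over all genes.

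The channel genes were spread on both sides of the median level. At or above the median level were 55 of 119 (46.2%), compared with 61.4% of all genes. Among sodium channel genes 8 of 11 (72.7%) reached it, among calcium channel genes 17 of 24 (70.8%), and among potassium channel genes 29 of 81 (35.8%). A low intensity can come from a weak probe set as well as from a scarce transcript, and the deposited values carry no detection calls, so genes below the level are not called absent. In sorted cells, fewer cells of a type and less RNA per cell cannot be told apart.

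What the arrays could exclude followed the same division. For the 55 genes at or above the level the difference ran from -0.68 to 0.86 with a median of 0.03, and 28 were above 0 and 27 below. In 21 of the 55 (38.2%) the 95% interval lay within a 2-fold change in either direction, against 68.1% of all genes at or above the level. The median SE was 0.35 in these channel genes and 0.27 in all genes at or above the level, whose median log2 levels were 7.92 and 9.20. For the 64 genes below the level the differences ran from -2.62 to 1.91, with a median SE of 0.64, and only 4 intervals lay within 2-fold.

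**Figure D1:**
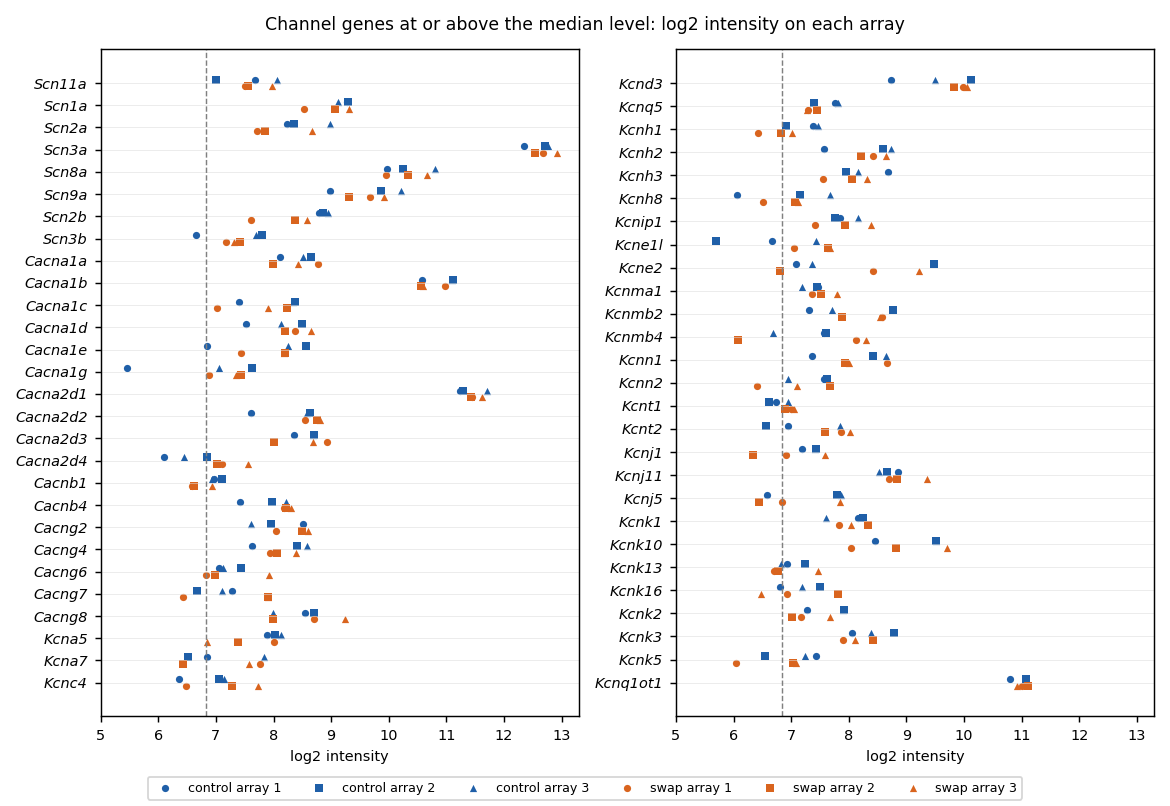
Log2 intensity (horizontal axis) of the 55 channel genes at or above the median level on each of the 6 arrays, 1 row per gene, with blue marks for the 3 control arrays and orange marks for the 3 swap arrays. The dashed line is the median level, log2 6.83. Blue and orange overlap in all rows but those of Cacna2d4, Cacnb1 and Scn2b (5.45% of the 55, against 8.19% of all genes at or above the level).

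The sodium channel alpha subunits form the pore. Scn3a, the isoform of embryonic and neonatal brain, stood well above the median level on every array, at 12.35, 12.70 and 12.77 in the controls and 12.68, 12.54 and 12.92 in the swaps. The groups overlapped, and the difference was 0.11 (95% interval -0.49 to 0.70). Without control array 1, the lowest of the 6, it was -0.02. A further Scn3a probe set, below the median level, gave 2.09 with all swap arrays higher. The mean of all Scn3a probe sets gave 1.10, and limma called neither. Scn8a, the sodium channel of axon initial segments and nodes, read 9.97, 10.24 and 10.80 in the controls and 9.95, 10.33 and 10.67 in the swaps. The 2 genotypes were almost superimposed in this Scn8a probe set, with a difference of -0.02 (95% interval -0.84 to 0.80).

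Scn9a, known from sensory and sympathetic neurons, read 8.99, 9.87 and 10.22 in the controls and 9.67, 9.30 and 9.92 in the swaps, a difference of -0.06 (95% interval -1.03 to 0.91). Scn1a, prominent in inhibitory interneurons of the mature brain, read 9.28, 9.29 and 9.12 against 8.53, 9.07 and 9.31. Swap array 1 was the lowest for Scn1a and swap array 3 the highest, so the groups overlapped, and the difference was -0.26 (95% interval -0.94 to 0.42). A further Scn1a probe set, also at or above the median level, gave 0.58, and another, below it, gave -1.16. Scn2a, found at early axon initial segments, had a difference of -0.44 (95% interval -1.35 to 0.47). Its further probe sets, all below the level, gave 0.79, -1.11 and 1.15. Scn1a, Scn2a, Scn3a, Scn7a and Scn9a all lie on chromosome 2 (RefSeq, GRCm38.p6). In their chosen probe sets the 5 differences fell on both sides of 0, from -0.44 to 0.12, with no interval that excluded 0. Further probe sets of these genes spread more widely, from -1.74 in Scn7a to 2.09 in Scn3a, both below the level.

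Scn10a and Scn11a, on chromosome 9, encode the sodium channels of pain-sensing neurons. Scn10a lay under the median level, at 6.35, 6.18 and 5.67 in the controls and 7.33, 6.68 and 7.21 in the swaps. All swap arrays were above all control arrays, and the difference was 1.01 with an SE of 0.31, which limma did not call (adjusted p = 1). Scn11a, at or above the level, had overlapping groups and a difference of 0.10 (95% interval -0.76 to 0.95).

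The beta subunits are single-pass proteins that modulate the alpha subunit and act in cell adhesion. All 3 measured had lower means in the swaps, and none passed the test. Scn2b read 8.80, 8.85 and 8.95 in the controls and 7.62, 8.36 and 8.57 in the swaps. The groups did not overlap, the difference was -0.68 with an SE of 0.31 (95% interval -1.45 to 0.09), and the limma adjusted p was 1. Without swap array 1, the lowest, the Scn2b difference was -0.40. A pair of further Scn2b probe sets, both at or above the median level, gave -0.45 and -0.05.

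Scn4b, the partner linked to alpha subunits in fast-firing neurons, was below the level and spread widely, at 6.66, 6.85 and 6.25 in the controls and 3.89, 4.73 and 6.10 in the swaps. The groups were apart by a narrow gap between 6.25 and 6.10, and the difference of -1.68 had an SE of 0.59. Scn3b read 6.65, 7.80 and 7.70 against 7.18, 7.41 and 7.31, where the swap arrays lay inside the range of the control arrays.

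The calcium channel alpha1 subunits form the pore and define the current type. Cacna1b, the N-type channel of presynaptic terminals, had the highest mean of its family, at 10.58, 11.11 and 11.09 in the controls and 10.97, 10.55 and 10.59 in the swaps. The groups overlapped, with a difference of -0.22 (95% interval -0.88 to 0.44). It was -0.40 without control array 1. Cacna1a, the P/Q-type channel, differed by -0.03 (95% interval -0.77 to 0.72).

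The L-type channels Cacna1c and Cacna1d, which link depolarization to transcription, differed by -0.31 (95% interval -1.42 to 0.79) and 0.36 (95% interval -0.44 to 1.16). Cacna1e, the R-type channel, had the lowest reading of its row on control array 1 (6.84) and a difference of 0.05. The T-type channel Cacna1g, which opens near the resting potential, read 5.45, 7.63 and 7.06 in the controls and 6.87, 7.44 and 7.35 in the swaps. Its difference of 0.51 came with an interval from -0.96 to 1.98 and was -0.12 without control array 1. Of the 9 alpha1 genes 5 had higher and 4 lower swap means, and 0 passed the test.

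The alpha2delta subunits bring the channel to the membrane, and all 4 were at or above the median level. Cacna2d1, a binding site of gabapentin, read 11.23, 11.29 and 11.71 in the controls and 11.44, 11.43 and 11.62 in the swaps, a difference of 0.09 (95% interval -0.50 to 0.68). The swap arrays lay inside the control range. Cacna2d4, best known from photoreceptors, read 6.10, 6.84 and 6.45 against 7.11, 7.02 and 7.55. Each swap array was above each control array, and the difference was 0.76 with an SE of 0.30 (95% interval 0.02 to 1.50). Cacna2d4 was the only channel gene at or above the level with an unadjusted limma p under 0.05 (its limma adjusted p was 1). That was 1.82% of the 55 channel genes there, close to the 1.26% of all genes at or above the level. Cacna2d2 and Cacna2d3 differed by 0.43 and -0.04, with overlapping groups.

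The cytoplasmic beta subunits are chaperones of the pore. Cacnb1, the beta subunit of skeletal muscle and brain, read 6.98, 7.11 and 6.94 in the controls and 6.58, 6.62 and 6.93 in the swaps. The groups were separated by a narrow gap between 6.94 and 6.93, and the difference was -0.30 (95% interval -0.84 to 0.24). Cacnb4 differed by 0.37, and by -0.41 when the mean of all its probe sets was used in place of the one with the highest level. The gamma family, with 8 genes, includes proteins that escort AMPA-type glutamate receptors. Cacng2 (stargazin) differed by 0.35 (95% interval -0.45 to 1.16). Cacng8, another of those escorts, had the highest mean of the family and differed by 0.24 (95% interval -0.75 to 1.23), and by -0.06 without swap array 3.

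Cacng3, a further AMPA-receptor escort, gave the lowest difference of all 119 genes. It read 5.70, 5.01 and 6.44 in the controls and 2.44, 4.44 and 2.40 in the swaps, all below the median level. The control arrays were all higher, and the difference was -2.62 with an SE of 0.69, at the limma adjusted p of 0.896. Cacng1, a muscle subunit also below the level, read 3.26, 5.04 and 3.77 against 5.70, 5.12 and 4.44 and differed by 1.06 (0.37 without both replicate 1 arrays).

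**Figure D2:**
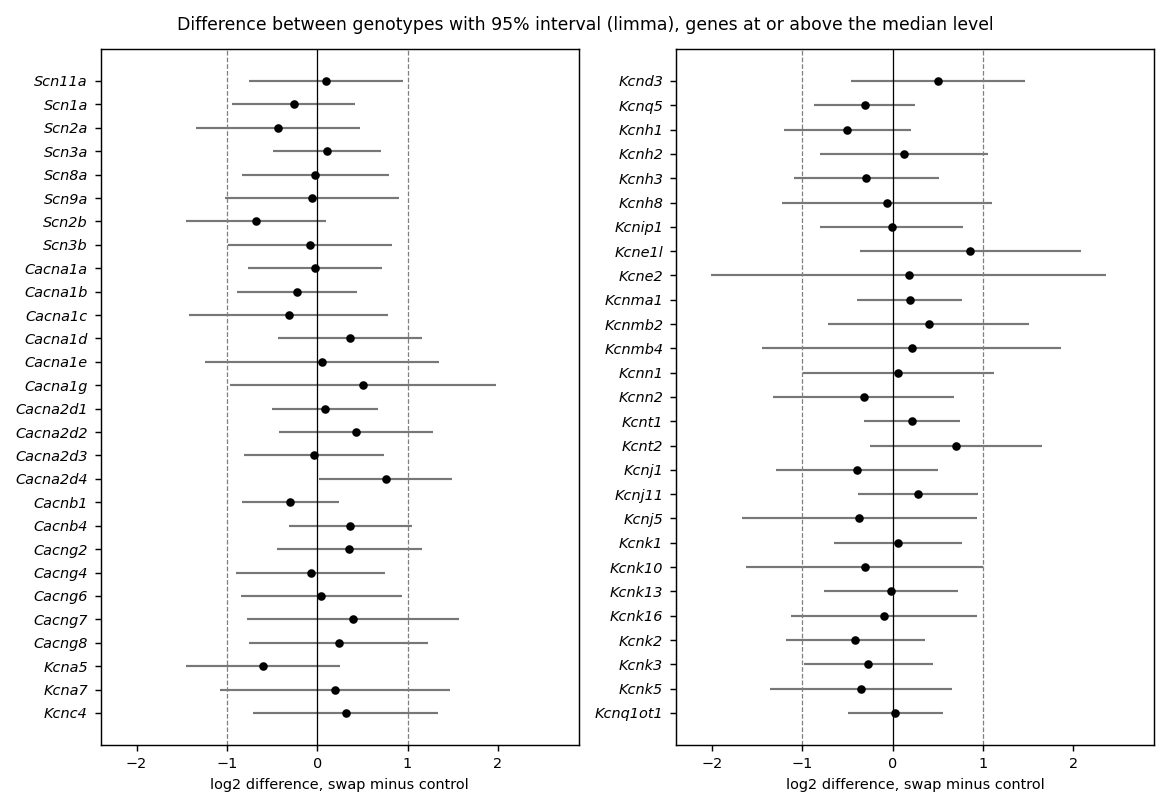
Swap minus control log2 difference (horizontal axis) with its 95% interval for the 55 channel genes at or above the median level, 1 row per gene, with dashed lines at a 2-fold change. The intervals of Scn3a (-0.49 to 0.70) and Kcnq1ot1 (-0.50 to 0.56) are narrow and span 0, that of Kcne2 (-2.01 to 2.36) is the widest, and that of Cacna2d4 (0.02 to 1.50) lies above 0.

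Among the voltage-gated potassium channels, Kcnd3 had the highest mean of its family. It encodes a Kv4 pore that carries the transient A-type current and delays firing. It read 8.73, 10.11 and 9.50 in the controls and 9.98, 9.82 and 10.05 in the swaps. The swap arrays were close together and inside the control range, and the difference was 0.50 (95% interval -0.46 to 1.47). Without control array 1 it was 0.14. The KChIP proteins bind Kv4 channels, and of 4 measured only Kcnip1 reached the median level, with a difference of -0.01 (95% interval -0.80 to 0.78) that was 0.24 without swap array 1. Kcnip4 was below the level, at 4.69, 6.09 and 6.46 against 6.62, 6.55 and 6.58, a difference of 0.83 with all swap arrays higher. A further Kcnip4 probe set, also below the level, gave -3.35, with a limma adjusted p of 0.268, so the probe sets of this gene pointed in opposite directions.

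The Kv1 genes encode pore subunits of voltage-gated potassium channels, and 2 of 7 were at or above the median level. Kcna5 read 7.89, 8.03 and 8.12 in the controls and 8.01, 7.39 and 6.85 in the swaps. Swap array 1 lay among the control arrays and the other two below them, and the difference was -0.60 (95% interval -1.45 to 0.25). Kcna4 and Kcna3 were below the level, with differences of -0.67 (groups apart) and 0.69 (groups overlapping). The 3 Kv-beta genes, for cytoplasmic partners of Kv1, had 0 members at or above the level, and Kcnab1 differed by 0.39 (-0.06 without control array 2). The 9 modifier genes, whose subunits form channels only with other Kv subunits, also had 0, and Kcns2 differed by -0.53, by -0.17 without control array 3 to -0.85 without control array 1, and by -0.06 with the mean of its probe sets. Within the modifiers, Kcnv1 read 6.41, 5.41 and 5.36 against 3.98, 3.21 and 5.06, a difference of -1.64. The mean of all Kcnv1 probe sets gave 0.25 in its place.

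Kcnc4, the Kv3-family gene at or above the level, whose relatives allow fast repolarization, differed by 0.31 (95% interval -0.71 to 1.34), and by 0.03 without swap array 3 to 0.65 without swap array 1. Kcnq5, a channel of the muscarine-sensitive M-current, differed by -0.31 with one of the narrower intervals (-0.87 to 0.25), and by 0.13 with the mean of its probe sets. In the EAG, ERG and ELK group 5 of 6 genes had lower swap means and 0 passed the test. Kcnh2, the ERG channel of cardiac repolarization, differed by 0.13 (-0.23 without control array 1), and Kcnh1, the EAG channel, by -0.50 (95% interval -1.20 to 0.20). A further Kcnh1 probe set, also at or above the median level, gave 0.01, and the mean of its probe sets gave -0.25.

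The Kcne genes encode small single-pass partners of voltage-gated potassium channels. Kcne2 had a wide spread in both groups, at 7.08, 9.47 and 7.36 in the controls and 8.42, 6.81 and 9.22 in the swaps. High and low readings occurred in both groups, and the difference of 0.18 had an interval from -2.01 to 2.36 and was -0.36 without swap array 3. Kcne1l, at or above the level, had the highest difference there, with 6.67, 5.69 and 7.44 against 7.05, 7.65 and 7.68. Its groups overlapped, and the difference of 0.86 had an interval from -0.36 to 2.08. Kcne1 was below the level, at 6.54, 5.80 and 6.03 against 5.78, 5.03 and 3.85, a difference of -1.24 with a narrow gap between 5.80 and 5.78.

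Calcium- and sodium-activated channels couple firing to internal ion levels, and 7 of 11 were at or above the median level. Kcnma1, the BK channel pore, read 7.47, 7.45 and 7.18 in the controls and 7.36, 7.52 and 7.79 in the swaps, a difference of 0.19 (95% interval -0.39 to 0.77). Kcnt1, a sodium-activated channel, differed by 0.21 with an interval from -0.31 to 0.74. Kcnma1 and Kcnt1 were thus among the genes whose intervals lay within 2-fold. The BK subunit Kcnmb4 spread from 6.69 to 7.60 in the controls and from 6.08 to 8.29 in the swaps. Kcnt2, a relative of Kcnt1, read 6.95, 6.57 and 7.85 against 7.86, 7.59 and 8.02 and differed by 0.70 (95% interval -0.25 to 1.65), with overlapping groups. The SK channel Kcnn1 differed by 0.06, and by -0.33 without control array 1.

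Kcnn3, an SK channel below the level, read 4.70, 4.95 and 5.17 against 7.23, 4.89 and 6.80. Swap arrays 1 and 3 were high and swap array 2 lay among the control arrays, and the difference was 1.36. Kcnu1, known as a sperm potassium channel, was also below the level, at 5.44, 5.57 and 6.33 against 4.76, 4.84 and 4.32. All control arrays were higher, and the difference was -1.14 with an SE of 0.33.

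Inward rectifiers hold the resting potential, and 3 of 15 were at or above the median level. Kcnj11, the pore of the ATP-sensitive channel, read 8.85, 8.66 and 8.52 in the controls and 8.69, 8.83 and 9.35 in the swaps, a difference of 0.28 (95% interval -0.38 to 0.95). The G-protein-gated channels Kcnj5, which spread widely, and Kcnj3, below the level, differed by -0.37 and 0.85. Leaving out 1 array took Kcnj5 from -0.07 (swap array 2) to -0.78 (control array 1), and the mean of all Kcnj3 probe sets gave 0.05, with -2.21 in one of them. Kcnj15 gave the highest difference of all 119 genes from readings below the level: 3.58, 4.44 and 4.39 against 5.39, 5.70 and 7.06. The swap arrays were all higher, with a difference of 1.91 (SE 0.52) and a limma adjusted p of 0.928. Its further probe sets gave 0.66 and -0.15. Kcnj16, which assembles with other inward rectifiers, read 6.08, 5.59 and 5.97 against 6.56, 6.65 and 6.77, a difference of 0.78 with the groups apart.

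Tandem-pore channels carry the background potassium leak, and 7 of 12 were at or above the median level. Kcnk10, a mechanically and lipid-gated leak channel, read 8.46, 9.51 and 9.51 in the controls and 8.04, 8.81 and 9.70 in the swaps. Both replicate 1 arrays were the lowest, and the difference was -0.31 (95% interval -1.62 to 1.01), or 0.10 without swap array 1. Kcnk3, an acid-sensitive leak channel, differed by -0.27, Kcnk2, a relative of Kcnk10, by -0.41, and Kcnk1 by 0.06, all with overlapping groups. Of the 12 genes 5 had higher and 7 lower swap means.

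Kcnq1ot1 is a long non-coding RNA read from within Kcnq1 on the opposite strand, and it silences neighbouring imprinted genes. It read 10.80, 11.07 and 11.05 in the controls and 11.00, 11.11 and 10.91 in the swaps. The groups overlapped, and the difference was 0.03 with the narrow interval of -0.50 to 0.56, and -0.06 without control array 1. Kcnq1 itself was below the median level and read from 3.48 to 6.34.

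**Figure D3:**
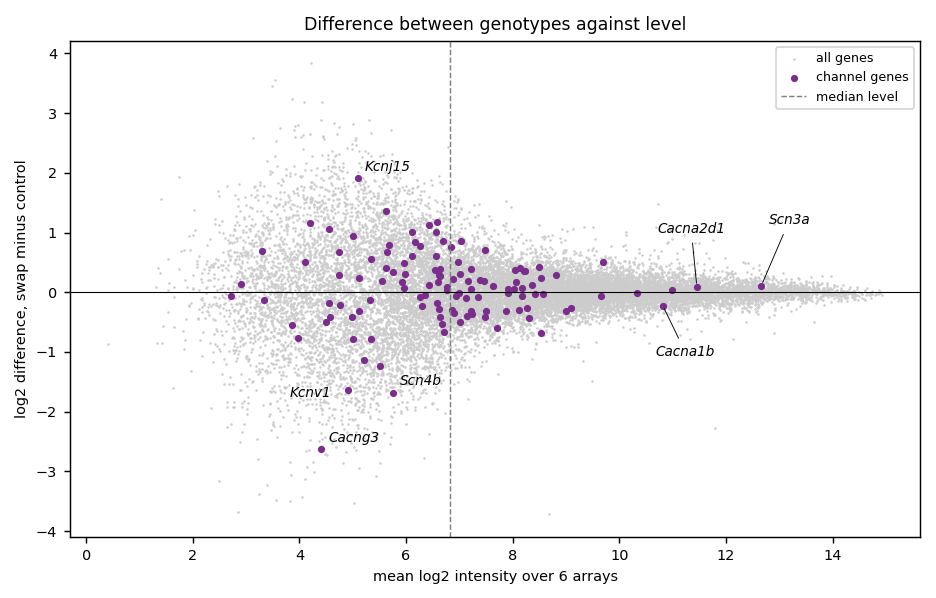
Swap minus control log2 difference (vertical axis) against mean log2 intensity over the 6 arrays (horizontal axis), for all 18193 genes in grey and the 119 channel genes in purple, with the median level dashed. Differences of channel genes run from -2.62 to 1.91 left of the line and from -0.68 to 0.86 right of it.

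Other probe sets of the same genes were used to see how far these values depended on the choice. There were 133 further probe sets for 72 of the 119 genes, and 64 of the 133 had a difference of the same sign as the chosen one. Of the 21 further probe sets that reached the median level, 12 had the same sign, and the median gap to the chosen probe set was 0.23. The widest gap among them was 1.25, for Cacng4, with 1.18 in the further and -0.07 in the chosen probe set. For Scn8a a pair of further probe sets at or above the level gave 0.19 and 0.31, beside -0.02. Another pair, below the level, gave 0.80 and 1.38, so all further Scn8a probe sets were above 0. Taking the mean of all probe sets of a gene in place of the brightest turned the sign for Cacna2d1 (-0.02), Kcnj11 (-0.15), Cacnb4, Kcnq5 and Kcnv1. Kcnk10 went to 0.00 by the same mean. These are the channel genes named by rule that turned, since the mean was followed for those genes only. Limma called 0 of the 133. An unadjusted limma p under 0.05 was found for 9 of the 133, all of them below the median level. Of all 45037 probe sets 2060 (4.57%) were under that p. No such share was counted over the further probe sets of all genes, so the 9 do not set channel genes apart.

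**Figure D4:**
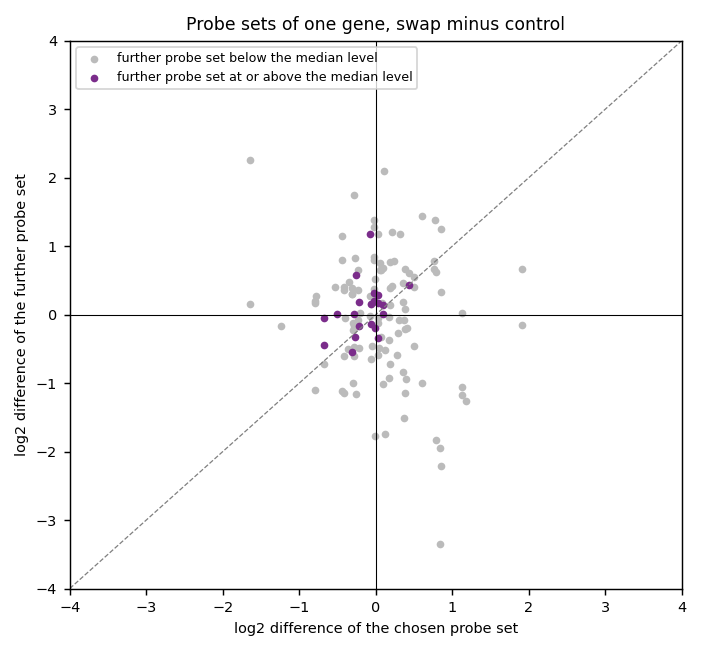
Log2 difference of each further probe set (vertical axis) against that of the chosen probe set of the same channel gene (horizontal axis), 133 points, purple where the further probe set was at or above the median level. The dashed line marks equal differences, and 64 of 133 points have the same sign on both axes.

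The channel genes varied by array within each genotype. Leaving out a single array moved the difference by over 1.5 times or turned its sign for 27 of the 40 channel genes named by rule, and turned it for 11. Differences near 0, such as that of Kcnip1 (-0.01), pass such a ratio easily. No such count was made over all genes, so it does not set channel genes apart. Over the 55 genes at or above the level, the median deviation from a gene's own mean was -0.23, 0.21 and 0.12 in the controls and -0.16, -0.03 and 0.26 in the swaps. Array 1 of both genotypes was thus low and swap array 3 high. One of the replicate 1 arrays held the lowest reading for 34 of the 55 genes (61.8%), and for 39.7% of all genes at or above the level. Among the 2948 genes within the interquartile range of the levels of these 55 (7.22 to 8.45) it was 43.7%. After quantile normalization the channel genes had 32 (58.2%, and 35% of the genes of that range), and after median centring 29 (52.7%, and 32.5%). Over all genes at or above the level the array medians of the same deviation lay between -0.01 and 0.03. For the 2948 genes of that range they were -0.05, 0.06 and 0.05 in the controls and -0.01, 0.02 and 0.09 in the swaps. Median centring took control array 1 and swap array 3 to -0.12 and 0.14 in the channel genes. In the genes of that range it took them to 0.05 and -0.03.

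**Figure D5:**
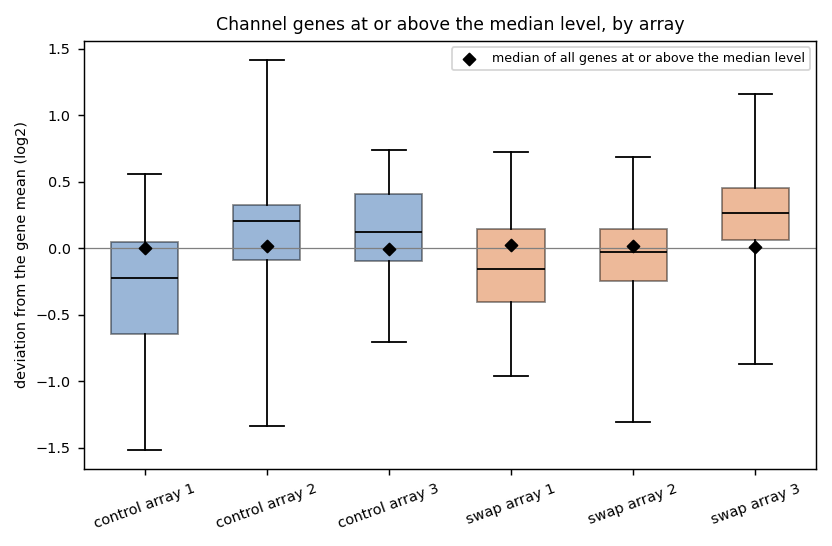
Deviation from the gene's mean over 6 arrays (vertical axis, log2) on each array (horizontal axis) for the 55 channel genes at or above the median level. Boxes span the interquartile range around the median line, whiskers reach the extremes, and diamonds are the medians of all genes at or above the level. Control array 1 has a median of -0.23 and swap array 3 a median of 0.26.

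Markers of other cells differed between arrays in the same data. The 6 mesenchyme markers summed to intensities of 2090, 7999 and 5578 in the controls and 2647, 5273 and 4134 in the swaps, lowest in both replicate 1 arrays. The 6 macrophage markers summed to 371, 14673 and 1244 against 1919, 3854 and 3473, and the 4 measured erythroid markers to 17112, 25440 and 24306 against 12896, 21940 and 24181. The 6 markers of endothelium and pericytes summed to 459 to 778 in the controls and 516 to 757 in the swaps, with 2 at or above the median level, and no marker was listed at 0. All 7 neuronal, all 5 progenitor and all 5 measured branchiomotor markers were at or above the level. The neuronal sums were 39855, 50996 and 47157 against 53844, 45075 and 51941, the progenitor sums ran from 38186 to 40897, and the branchiomotor sums from 36322 to 40311 in the control and 38978 to 49801 in the swaps. Such sums follow their brightest markers, and single markers of a list could differ in sign. Swap means were higher in 4 of 6 macrophage, 4 of 6 endothelium and pericyte, 0 of 4 erythroid and 0 of 6 mesenchyme markers. In the remaining lists they were higher in 7 of 7 neuronal, 2 of 5 progenitor and 3 of 5 branchiomotor markers. The part of the marker sums in the array pattern of the channel genes was not tested.

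Genes that place, anchor or regulate the channels were followed from a list outside the symbol rule. Of 42 listed, 33 were measured and 20 were at or above the median level. Limma called 0 of the 33, with 16 higher and 17 lower in the swaps and a median difference of -0.01. Cntnap2, which clusters potassium channels along myelinated axons, was the 1 gene of the 33 (3.03%, against 3.63% of all genes) with an unadjusted p under 0.05, at 9.89, 9.71 and 9.28 against 11.30, 10.48 and 10.10. Its swap arrays were all higher, with a difference of 1.00 (SE 0.38) and a limma adjusted p of 1, and it was 0.67 without swap array 1 and 0.44 with the mean of all its probe sets. Ank2, an adaptor that anchors channels to the cytoskeleton, differed by -0.08 (0.23 without swap array 1), and Dlg1, a scaffold that binds Kv1 channels, by 0.05 (-0.03 without swap array 1). Rest, the repressor that keeps sodium channel genes silent outside neurons, read 11.26, 11.56 and 11.53 against 10.38, 11.59 and 11.41, a difference of -0.32, or 0.05 without swap array 1 and 0.32 with the mean of its probe sets.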

How the data were processed

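Amplified, biotin-labelled RNA of the sorted cells was measured on Affymetrix Mouse Genome 430 2.0 microarrays, per the labels and the series design. The authors deposited a linear intensity for each of 45101 probe sets on each array. They used affy, per the submitters' processing notes; version and summary method: not given in the sources used here. These intensities had a 2% trimmed mean of 500 on each array, and array medians of 118 to 139. The log2 was taken with no offset. After 64 array control probe sets were left out, swap minus control was fitted with limma 3.58.1 (lmFit, eBayes) in R 4.3.3 on all 6 arrays, with Benjamini-Hochberg adjustment over 45037 probe sets and a 0.05 threshold. That fit also gave the 95% intervals, and the number of arrays limits their precision. Of the probe sets 34945 had 1 symbol, and all 119 channel symbols matched RefSeq by Entrez identifier. Promoter windows are from RefSeq, GRCm38.p6.

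Genes named by rule were the 8 channel genes with the smallest unadjusted p per direction, the highest mean of each family, and, at or above the median level, the 5 with the largest spread and the 5 with the narrowest interval, plus 6 partner genes. Other genes named were chosen after their values were seen. The members and lists were chosen with earlier results of these data known. The fit was tested on simulated data. Alternatives covered scaling, offset, filter, prior, array weights, replicate block, probe set choice and left-out arrays.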

Additional observations from a re-analysis of the deposited data

How the results depend on the processing

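Limma called 0 channel genes and 0 partner genes under each of the 15 alternatives, with 55 of the 119 channel genes tested under the filter, and 0 probe sets under each of the 14 that test probe sets, which leaves out the mean per gene. Over the alternatives, the smallest adjusted p of a channel gene was 0.439, without swap replicate 3. Channel genes at an unadjusted p under 0.05 numbered 3 to 11 in those that kept all 119, and 2 of 55 with the filter. The median difference ran from -0.06 without control replicate 1 to 0.14 without swap replicate 2. Quantile normalization gave 0.09 and median centring 0.09. With the replicate number as a block, limma called 0 channel genes, with 8 at an unadjusted p under 0.05 and a median of 0.06. Deviations of same-numbered arrays correlated at 0.23, 0.03 and 0.22, and those of differently numbered arrays at -0.29 to 0.12. The main fit did not pair the arrays, and whether the numbers mark pairs was not tested. Of 675 values of the 46 genes named by rule, 631 kept their direction, 44 (19 genes) changed sign, and 0 became called. Without both replicate 1 arrays, Kcnn1 was -0.56 (0.06 with all arrays) and Kcne2 -0.40 (0.18). The cause was not tested. Of the channel genes below the median level, 4 of 64 had an interval within 2-fold, so larger differences lay inside most of these intervals.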
